A study of Homo sapiens with 6 samples.

Results

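The genes examined here are the 10 that carry out the main steps of microRNA production and action: *DROSHA*, *DGCR8*, *XPO5*, *DICER1*, *TARBP2*, *AGO1*, *AGO2*, *AGO3*, *AGO4* and *TNRC6A*. They were taken by gene symbol from a fixed list, out of 23030 symbols in the merged read-count table of the series. The match was on names and not on values, but the list was chosen with earlier results of these data known. The study measured total RNA in HEK293T cells, a human embryonic kidney line that carries the SV40 large T antigen, to ask which transcripts change when *RREB1*, a zinc finger transcription factor, is targeted by a short hairpin RNA. The control cells (sh-control, 3 libraries) carried a pLKO.1 lentiviral vector with a nonspecific hairpin, and the other cells (sh-RREB1, 3 libraries) carried the same vector with a hairpin against *RREB1*. Both kinds of cells were stable lines selected with neomycin and grown in DMEM with 10% fetal bovine serum, so that every library came from cells expressing a hairpin. The labels do not say whether the replicates were separate cultures or separate infections, and p-values therefore measure the spread between these libraries only.

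MicroRNAs are cut from long primary transcripts in the nucleus by the Microprocessor, in which DROSHA is the nuclease and DGCR8 the RNA-binding partner. Exportin-5 (XPO5) carries the released hairpin to the cytoplasm, DICER1 trims it to a short duplex with the help of the double-stranded RNA-binding protein TARBP2, and 1 strand is loaded into an Argonaute protein (AGO1 to AGO4). AGO2 is the family member best known for cutting target RNAs, and all members repress targets through GW182 proteins such as TNRC6A, which recruit deadenylases. Vector-expressed hairpins enter this route at the export step, so these genes handle the very tool used in the experiment.

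Between 12257054 and 33044061 reads per library fell on genes in the sense direction, the lowest number being that of sh-RREB1 replicate 3. In that library 52.1% of aligned reads mapped to several places, against 3.66% to 7.63% in the other 5. The targeted gene, *RREB1*, stood at 27.1, 25.1 and 26.5 CPM (reads on the gene relative to the library's scaled total) in sh-control and at 23.7, 24.6 and 23.1 CPM in sh-RREB1. All 3 of the latter were below all 3 sh-control libraries, by a narrow margin. Its log2 fold change was -0.14 (SE 0.13, adjusted p = 0.489, edgeR), or -0.36 (adjusted p = 0.0539) after a trend on GC content and length was removed, so a drop of the target did not pass the test in either fit and the second group is called sh-RREB1-labelled. All 7 listed HEK293 markers were detected, although *PAX2* did not exceed 0.475 CPM, and their summed level was 680 to 721 CPM in sh-control, against 960 to 1020 CPM in the sh-RREB1-labelled libraries. *VIM* alone was at 329 to 359 CPM against 529 to 615 CPM. *NEFL*, *NEFM* and *PAX2* were also higher in every sh-RREB1-labelled library, whereas *KRT8*, *KRT18* and *LIN28B* overlapped between groups. Blood, liver and endothelial markers summed to at most 0.529 CPM in any library, with *CD3E* and *HBB* at 0 reads in all. The 3 fibroblast markers summed to 3.56 to 4.23 CPM in sh-control, against 3.32 to 11.7 CPM in the sh-RREB1-labelled libraries, in which *COL1A1* was at 0.949 to 2.63 CPM against 0.347 to 0.684 CPM. Whether these shifts have a part in the results that follow was not tested. In such bulk RNA, fewer cells of a type and less RNA per cell cannot be told apart.

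All 10 genes passed the filter of 10 reads over the 6 libraries. None reached the study-wide call of an adjusted p below 0.01 with an absolute log2 fold change above 1, by edgeR or by DESeq2, whereas 3.38% of the 23617 genes tested did by edgeR and 9.14% of 18119 by DESeq2. At an adjusted p below 0.05 with no minimum fold change, 4 of the 10 passed against 19.4% of all genes, and the words rose and fell are used for such genes. *AGO1* and *AGO2* rose (10.7% of all genes rose), and *AGO4* and *TNRC6A* fell (8.69% of all genes fell). DESeq2 also had 4 of the 10 below that adjusted p, against 29.5% of genes, and at an unadjusted p below 0.05 edgeR had 6, against 34.2%. The 3 libraries of one group lay wholly above or below those of the other for 5 of the 10 genes, against 40.9% of all genes. With only 10 genes chosen by name, these shares describe the set and show nothing particular to it. The median log2 fold change was -0.02 over the 10 genes and 0.01 over all genes.

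**Figure D1:**
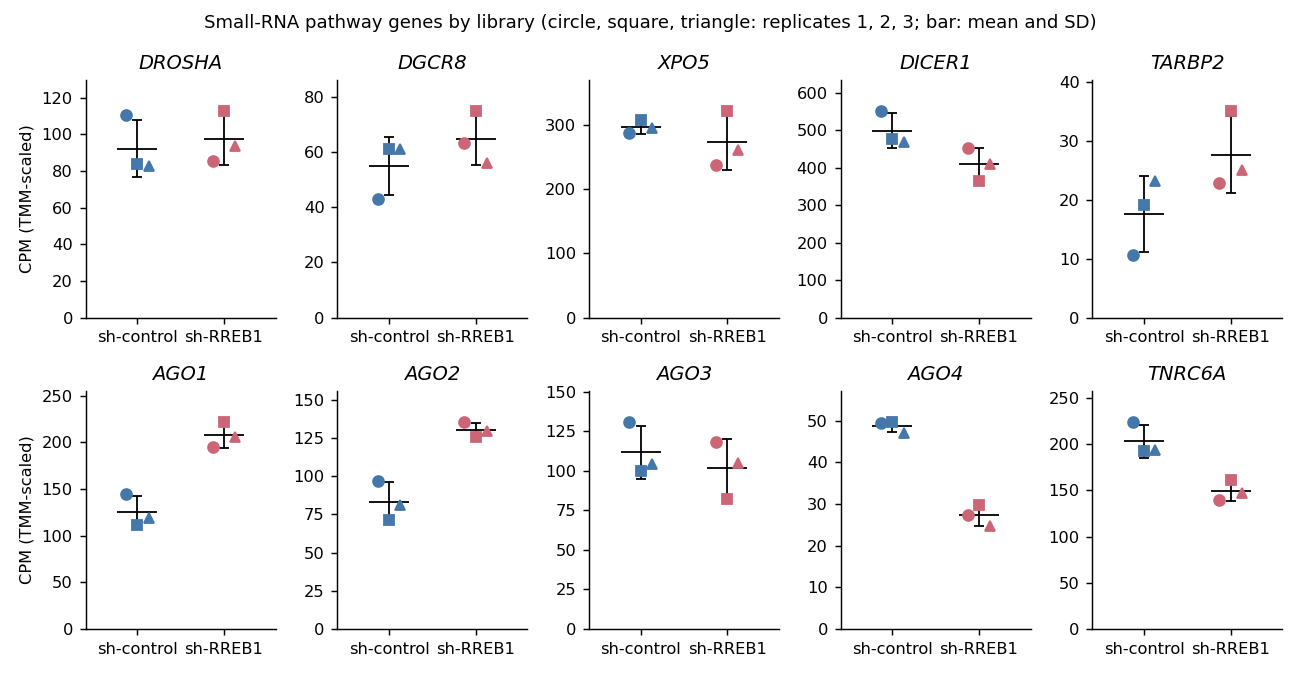
Level of each of the 10 genes in every library, in CPM after TMM scaling (vertical axis from 0, one panel per gene), with 3 sh-control libraries in blue and 3 sh-RREB1-labelled libraries in red; circle, square and triangle are replicates 1, 2 and 3, and the bars are the mean and SD. The groups do not overlap for *AGO1*, *AGO2*, *AGO4*, *DICER1* and *TNRC6A*.

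The Argonaute genes moved in opposite directions. *AGO1* and *AGO2* rose, *AGO4* fell, and *AGO3* did not pass the test. Members *AGO1*, *AGO3* and *AGO4* lie in a row on the same strand of human chromosome 1 (GRCh38, Gencode 44), *AGO4* at chr1:35808016-35857890, *AGO1* at chr1:35869808-35930532 and *AGO3* at chr1:35930718-36072500. Only 11917 bases separate the end of *AGO4* from the start of *AGO1*, and 185 bases separate *AGO1* from *AGO3*. *AGO2* lies apart, on the minus strand at chr8:140520156-140635633.

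*AGO1* (ENSG00000092847) stood at 145, 111 and 119 CPM in sh-control replicates 1 to 3 and at 195, 222 and 205 CPM in the sh-RREB1-labelled libraries, on 2595 to 5805 reads per library. Every sh-RREB1-labelled library was above every sh-control library, and the groups did not overlap. The log2 fold change was 0.73 (SE 0.13, 95% confidence interval 0.45 to 1.02, adjusted p = 0.00728), a 1.66-fold higher level. The adjusted p stayed below 0.05 with each library left out in turn, reaching 0.0484 without sh-control replicate 2.

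*AGO2* (ENSG00000123908), which encodes the slicing Argonaute, stood at 96.8, 71.6 and 81.0 CPM in sh-control, against 135, 126 and 129.6 CPM in the sh-RREB1-labelled libraries. The 2 groups were again apart, with sh-control replicate 1 the highest of its group for both genes. The log2 fold change was 0.65 (SE 0.13, adjusted p = 0.0118), or 1.57-fold. This rise no longer passed the test without sh-control replicate 2 (log2 fold change 0.52, adjusted p = 0.0692) or without sh-RREB1 replicate 3 (0.65, adjusted p = 0.0562).

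*AGO4* (ENSG00000134698) had the largest absolute change of the 10 genes as counted, although *AGO1* was ahead with library totals (0.81 against -0.75) and after the trend on GC content and length was removed (0.76 against -0.72). Its level was 49.5, 49.7 and 47.1 CPM in sh-control, against 27.4, 29.8 and 24.8 CPM in the sh-RREB1-labelled libraries. The sh-control libraries agreed closely (mean 48.8 ± 1.42, SD, n = 3) and all lay above the other 3 (27.3 ± 2.53, SD, n = 3). *AGO4* fell by 43.9%, with a log2 fold change of -0.83 (SE 0.13, 95% confidence interval -1.12 to -0.54, adjusted p = 0.00519), and the adjusted p was at most 0.0361 whichever library was left out. The 3 genes whose levels followed *AGO4* most closely over the 6 libraries, by Euclidean distance of centred log2 CPM among 10917 other genes, were *ZNF266* (distance 0.0746), *CNTRL* (0.0951) and *GALNT5* (0.0987).

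*AGO3* (ENSG00000126070) stood at 131, 100.02 and 104 CPM in sh-control, against 118, 82.4 and 105 CPM in the sh-RREB1-labelled libraries. Its groups overlapped, with a log2 fold change of -0.13 (SE 0.16, 95% confidence interval -0.50 to 0.23, adjusted p = 0.620).

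Within a library the 4 genes share depth and scaling, and they were therefore also expressed as shares of the family's reads per kilobase of exon. *AGO1* made up 35.3%, 33.2% and 34.0% of the family in sh-control and 43.8%, 49.9% and 47.0% in the sh-RREB1-labelled libraries. The share of *AGO4* was 22.8%, 28.0% and 25.6% in the first group and 11.6%, 12.7% and 10.7% in the second. *AGO1* and *AGO2* together went from 54.3% ± 2.02 to 73.0% ± 2.13 (SD, n = 3 each), a difference of 18.7 percentage points. The shares of *AGO2* (20.1% to 26.1%) and *AGO3* (20.2% to 15.3%, group means) did not overlap between groups either. Shares of a family add to a fixed total and are not independent of each other. The level of *AGO3* itself, in CPM, overlapped between groups. With 3 libraries against 3, an exact two-sided permutation test cannot give a p below 0.1, which is what all 5 of these shares gave (0.1 after adjustment over the 8 shares tested in the Argonaute and GW182 families). Read against *AGO4* within each library, *AGO1* had 2.93, 2.24 and 2.52 reads per read of *AGO4* in sh-control and 7.13, 7.43 and 8.29 in the sh-RREB1-labelled libraries. For *AGO2* the same ratio was 1.96, 1.44 and 1.72 against 4.94, 4.21 and 5.23. Neither ratio could overlap between groups, because *AGO1*, *AGO2* and *AGO4* were each already apart, *AGO4* in the opposite direction. The ratios restate those differences and add no further evidence.

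**Figure D2:**
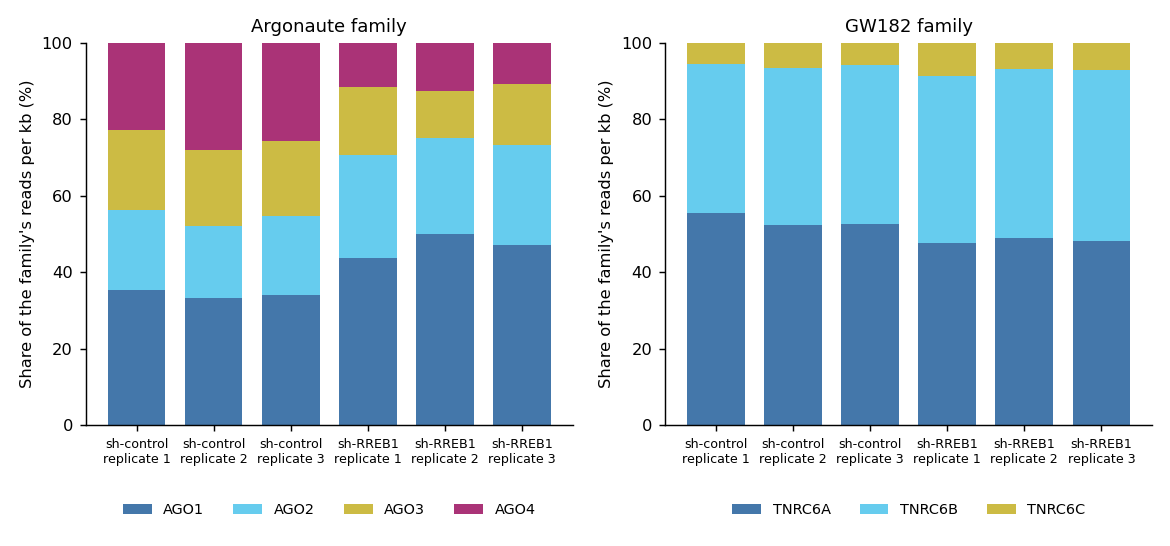
Share of each gene in the reads per kilobase of exon of its family (vertical axis, 0 to 100%), one bar per library, for the 4 Argonaute genes (left) and the 3 GW182 genes (right). *AGO1* and *AGO2* together take 52.1% to 56.1% of the Argonaute bars in sh-control and 70.8% to 74.98% in the sh-RREB1-labelled libraries, while the *TNRC6A* part of the GW182 bars goes from 52.4% to 55.5% down to 47.7% to 49.0%.

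The windows of 250 bases before the RefSeq starts of *AGO1* and *AGO4* are shown because these close neighbours on chromosome 1 moved in opposite directions. Capitals mark matches to the GC box, the binding motif of SP1-like factors (GGGCGG or its reverse complement CCGCCC, on either strand). The RefSeq start of *AGO1* lies downstream of the Gencode gene start given above.
*AGO1*, chr1:35882959-35883208, plus strand (GRCh38.p14): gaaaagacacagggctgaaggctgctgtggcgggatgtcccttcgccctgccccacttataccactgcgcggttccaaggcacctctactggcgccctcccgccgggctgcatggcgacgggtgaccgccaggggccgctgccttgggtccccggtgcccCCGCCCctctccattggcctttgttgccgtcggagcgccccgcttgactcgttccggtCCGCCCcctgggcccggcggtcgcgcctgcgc
*AGO4*, chr1:35807766-35808015, plus strand (GRCh38.p14): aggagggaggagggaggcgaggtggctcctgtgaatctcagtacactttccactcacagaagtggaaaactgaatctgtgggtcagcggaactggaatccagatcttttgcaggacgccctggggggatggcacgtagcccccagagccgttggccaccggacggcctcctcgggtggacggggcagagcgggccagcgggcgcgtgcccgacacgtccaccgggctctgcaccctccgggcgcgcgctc
The *AGO1* window held 2 GC boxes and 71.6% G and C, and the *AGO4* window held 0 GC boxes and 66.4%. A GC box occurred in 41.3% of 27305 RefSeq promoter windows of this length, whose median G and C content was 57.6%. Of the 10 genes, 9 had a window (the exception was *AGO2*). The windows of *AGO1*, *AGO3*, *DICER1* and *TNRC6A* lie wholly within the Gencode gene and not before its start. GC boxes occurred in the windows of *AGO1*, *AGO3*, *DROSHA*, *DGCR8*, *XPO5* and *TNRC6A*, and not in those of *AGO4*, *DICER1* and *TARBP2*. The E-box CACGTG, in 6.28% of all windows, was in none of the 9. These matches describe letters in a window and not binding.

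*TNRC6A* (ENSG00000090905, chr16:24610209-24827632, plus strand) encodes the GW182 protein that links Argonaute to the deadenylases. It stood at 224, 192 and 193 CPM in sh-control, against 140.0, 161 and 147 CPM in the sh-RREB1-labelled libraries. All 3 sh-RREB1-labelled libraries were below all 3 sh-control libraries. *TNRC6A* fell by 26.5% (log2 fold change -0.44, SE 0.11, adjusted p = 0.0255). This fall lost its adjusted p below 0.05 without sh-control replicate 2 (0.0616), sh-RREB1 replicate 1 (0.0711) or sh-RREB1 replicate 3 (0.108), although its log2 fold change stayed between -0.51 and -0.40.

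Its paralogues did not pass the test. *TNRC6B* had a log2 fold change of -0.17 (SE 0.10, adjusted p = 0.261) and *TNRC6C* one of 0.04 (SE 0.14, adjusted p = 0.871). Within the GW182 family, the share of *TNRC6A* in reads per kilobase went from 53.5% ± 1.72 to 48.3% ± 0.668 and that of *TNRC6B* from 40.5% ± 1.47 to 44.1% ± 0.407 (SD, n = 3 each). That of *TNRC6C* was 5.68%, 6.58% and 5.74% in sh-control, against 8.58%, 6.97% and 7.19%. None of the 3 shares overlapped between groups (exact permutation p = 0.1 each, the smallest possible). These shares also add to a fixed total. That of *TNRC6B* was higher although its level in CPM was lower in every sh-RREB1-labelled library than in any sh-control library. The *TNRC6C* difference of 1.58 percentage points shrank to 0.388 (exact permutation p = 0.7) once the trend on GC content and length was removed.

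The nuclear genes showed no change past the test. *DROSHA* (ENSG00000113360, chr5:31400494-31532196, minus strand) stood at 110.4, 83.8 and 82.5 CPM in sh-control, against 85.2, 113 and 93.8 CPM in the sh-RREB1-labelled libraries. Those ranges overlapped, and the log2 fold change was 0.08 (SE 0.16, 95% confidence interval -0.28 to 0.43, adjusted p = 0.774). *DGCR8* (ENSG00000128191, chr22:20080221-20111877, plus strand) stood at 42.9, 61.0 and 61.1 CPM against 63.4, 74.9 and 56.0 CPM. Its groups overlapped too, since sh-RREB1 replicate 3 was below the 2 higher sh-control libraries, and the log2 fold change was 0.24 (SE 0.17, 95% confidence interval -0.15 to 0.63, adjusted p = 0.377). The ratio of *DROSHA* to *DGCR8* reads was 2.57, 1.37 and 1.35 in sh-control and 1.34, 1.51 and 1.68 in the sh-RREB1-labelled libraries (exact permutation p = 0.8).

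*DGCR8* is itself a host of microRNA hairpins, which the Microprocessor is known to cut from its messenger RNA. *DICER1* holds another hairpin. Their mature sequences (RefSeq, GRCh38.p14) are shown because the merged table lists the *DGCR8* counts 3 times, under the gene's own Entrez identifier and under those of *MIR1306* and *MIR3618*, so that those entries are counts of the host gene and not of microRNAs. Capitals mark the seed, bases 2 to 8.
hsa-miR-3618, chr22:20085797-20085818, plus strand, untranslated exon of *DGCR8*: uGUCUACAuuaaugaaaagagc
hsa-miR-1306-5p, chr22:20086072-20086093, plus strand, coding exon of *DGCR8*: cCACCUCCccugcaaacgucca
hsa-miR-1306-3p, chr22:20086112-20086129, plus strand, coding exon of *DGCR8*: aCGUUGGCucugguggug
hsa-miR-3173-5p, chr14:95137961-95137982, minus strand, intron of *DICER1*: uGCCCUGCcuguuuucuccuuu
hsa-miR-3173-3p, chr14:95137923-95137944, minus strand, intron of *DICER1*: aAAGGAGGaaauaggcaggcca
No seed was shared among these 5. The library tables give *MIR3173* its own entry, which held 4, 8 and 5 reads in sh-control, against 2, 0 and 3 in the sh-RREB1-labelled libraries, in total RNA libraries, which are not made to capture mature microRNAs.

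The export and dicing genes did not pass the test either. *XPO5* (ENSG00000124571, chr6:43522334-43576038, minus strand) stood at 287, 307 and 295 CPM in sh-control, against 238, 322 and 261 CPM in the sh-RREB1-labelled libraries. Its groups overlapped because sh-RREB1 replicate 2 was the highest of all 6, and the log2 fold change was -0.11 (SE 0.13, 95% confidence interval -0.40 to 0.17, adjusted p = 0.575).

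*DICER1* (ENSG00000100697, chr14:95086228-95158010, minus strand), the most deeply read of the 10 with 5170 to 15054 reads per library, stood at 552, 476 and 468 CPM in sh-control. In the sh-RREB1-labelled libraries it was at 453, 364 and 409 CPM. The groups did not overlap, but the gap between 468 and 453 CPM was small beside the spread within each group. The log2 fold change of -0.29 (SE 0.12, 95% confidence interval -0.56 to -0.02) had an adjusted p of 0.125.

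*TARBP2* (ENSG00000139546, chr12:53500921-53506431, plus strand) had the fewest reads, 244 to 919 per library, and the widest spread. It stood at 10.6, 19.1 and 23.2 CPM in sh-control, against 22.8, 35.1 and 25.1 CPM in the sh-RREB1-labelled libraries. The log2 fold change of 0.65 was as large as that of *AGO2*, but with an SE of 0.28 its adjusted p was 0.144, and without sh-control replicate 1 it was 0.35 (adjusted p = 0.212). The ratio of *DICER1* to *TARBP2* reads was 52.2, 25.002 and 20.2 in sh-control and 19.9, 10.4 and 16.3 in the sh-RREB1-labelled libraries. These ratios did not overlap (exact permutation p = 0.1, 0.133 after adjustment over the 4 ratios tested), with sh-control replicate 3 and sh-RREB1 replicate 1 nearly equal. The ratios were not corrected for the trend on GC content and length. Between groups (sh-RREB1-labelled minus sh-control) that fitted trend differed by 0.58 log2 units for *TARBP2* and by -0.19 for *DICER1*.

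*TARBP2* and *DGCR8* had the highest G and C content of the 10, at 56.9% and 56.1% of exonic bases, whereas the other 8 lay between 39.0% and 47.2%. In sh-control replicate 1 and, the other way, in sh-RREB1 replicate 2, the levels of genes moved with this property. In the first of these libraries the trend fitted across all genes on GC content and length was -0.74 log2 units for *TARBP2* and -0.65 for *DGCR8*, against 0.28 for *DICER1* and 0.27 for *AGO3*. In sh-RREB1 replicate 2 it was 0.51 for both *TARBP2* and *DGCR8* and -0.22 for both *DICER1* and *AGO3*. After this trend was removed from every library, the log2 fold change of *TARBP2* went from 0.65 to 0.11 (adjusted p = 0.575), and that of *DGCR8* went from 0.24 to -0.29 (SE 0.09, adjusted p = 0.0433). With a library left out as well, the corrected *DGCR8* value stayed below 0, but its adjusted p ranged from 0.0309 to 0.193 and was below 0.05 in 1 of 6 fits.

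The 4 genes that had passed the test did so again after this correction. *AGO1* was at 0.76 (adjusted p = 0.000320), *AGO2* at 0.67 (adjusted p = 0.00183), *AGO4* at -0.72 (adjusted p = 0.000386) and *TNRC6A* at -0.35 (adjusted p = 0.00836), each a log2 fold change by edgeR. All 4 kept an adjusted p below 0.05 in that fit whichever library was left out. *DICER1* shrank to -0.10 (adjusted p = 0.421), while *AGO3* went to 0.06 (0.677), *DROSHA* to 0.23 (0.1998) and *XPO5* to -0.08 (0.560). With the correction, 5 of the 10 had an adjusted p below 0.05, against 21.9% of all genes.

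**Figure D3:**
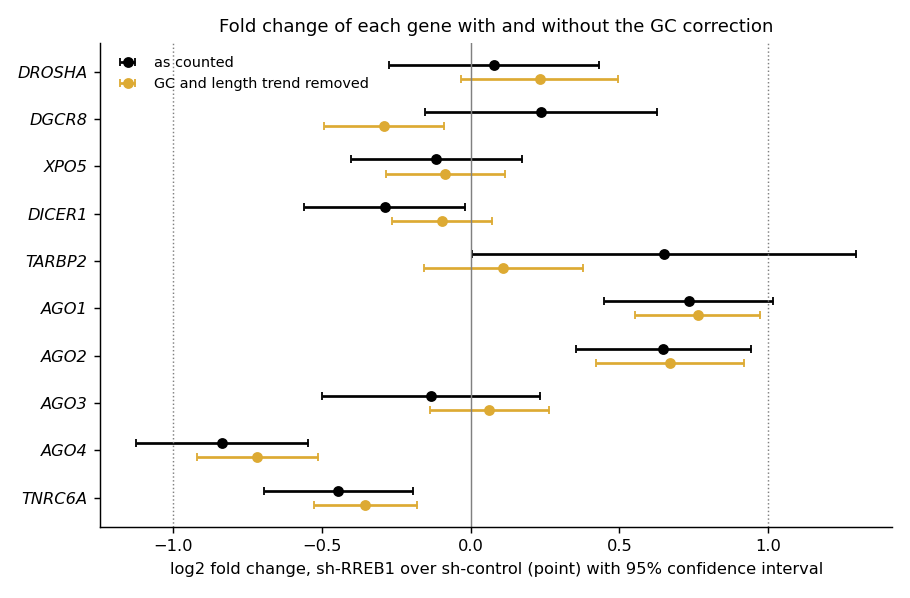
Log2 fold change of each gene, sh-RREB1-labelled libraries over sh-control (horizontal axis; points with 95% confidence intervals, dotted lines at -1 and 1), as counted in black and after the trend on GC content and length was removed in yellow. *AGO1*, *AGO2*, *AGO4* and *TNRC6A* keep their place, *TARBP2* moves from 0.65 to 0.11 and *DGCR8* from 0.24 to -0.29.

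**Figure D4:**
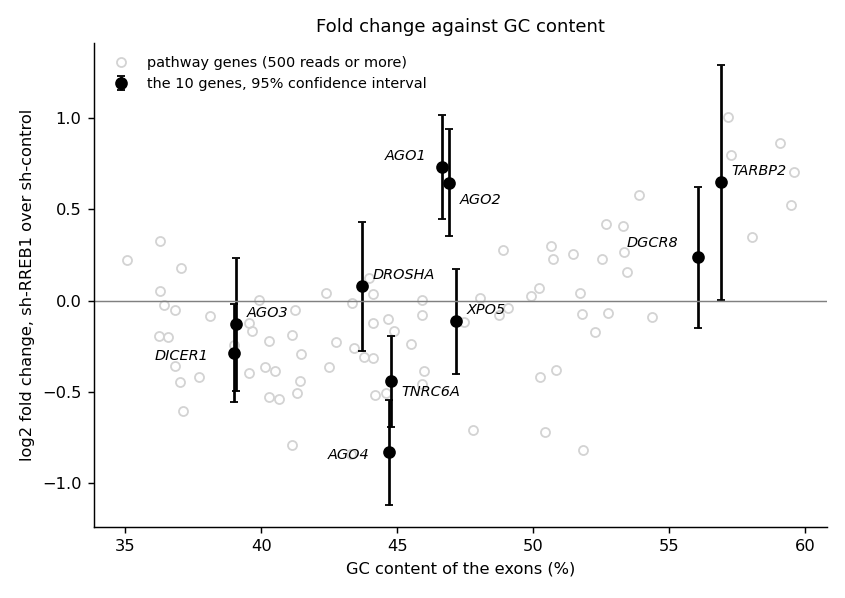
Log2 fold change (vertical axis) against the GC content of the exons (horizontal axis, %) for the 10 genes (black, 95% confidence intervals) and 82 other pathway genes with 500 reads or more in all (grey circles). *AGO1* and *AGO2* lie at 46.7% and 46.9% GC above most genes of like GC content, *AGO4* at 44.7% below most, and *TARBP2* and *DGCR8* at the GC-rich end, where most pathway genes have positive values.

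Levels between genes were compared per length, in TPM (reads per base of exon, scaled to a common total, over the union of exons) in sh-control. *XPO5* was highest, with a mean of 141 TPM (132 to 156), followed by *DICER1* with 91.8 TPM (80.0 to 114) and *TNRC6A* with 63.8 TPM (55.8 to 79.2). *XPO5* and *DICER1* were each separated from the next gene beyond their ranges. *DROSHA* (mean 48.6 TPM) and *AGO1* (36.4 TPM) came next, with ranges that overlapped their neighbours, although *TNRC6A* was above *DROSHA* and *DROSHA* above *AGO1* in all 3 libraries.

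Below them the ranges overlapped from each gene to the next, although *AGO4* was above *AGO3* in all 3 libraries. *DGCR8* was at 29.9, *AGO4* at 26.6, *AGO3* at 21.6, *AGO2* at 21.5 and *TARBP2* at 16.9 TPM. In the sh-RREB1-labelled libraries the mean of *AGO1* was 53.5 TPM and that of *AGO4* 13.3 TPM, the lowest of the 10. With the length of the canonical transcript in place of the exon union, the first 4 kept their order. The ranges of *XPO5* (123 to 143 TPM) and *DICER1* (100 to 141 TPM) then overlapped, although *XPO5* was above *DICER1* in every sh-control library. *TARBP2* moved from rank 10 to rank 6 and *AGO3* became the last, so levels depend on which transcript is assumed.

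The wider pathway was read from 9 lists of genes that act beside the 10, 101 genes in all, of which 91 had enough reads. None was called at an adjusted p below 0.01 with an absolute log2 fold change above 1 by edgeR, and 1 was by DESeq2. At an adjusted p below 0.05, 5 rose and 14 fell, or 20.9% of the 91 against 19.4% of all genes. Of all genes, 10.7% rose and 8.69% fell. An unadjusted p below 0.05 was found for 35 of the 91, against 34.2% of all genes. The median log2 fold change was -0.11, against 0.01 over all genes. After the GC correction, 2 were higher and 13 lower at an adjusted p below 0.05, or 16.5% of the 91 against 21.9% of all genes, with a median of -0.04 against -0.03 over all genes. The lists were drawn up with earlier results of these data known, and the genes named below are the 2 with the lowest adjusted p in each direction.

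Among 11 Microprocessor cofactors, 2 rose and 1 fell, with a median of -0.08. *DDX17*, an RNA helicase of the complex, went from 1915 to 2165 CPM in sh-control down to 1367 to 1441 CPM (log2 fold change -0.52, adjusted p = 0.00966). *SRRT*, which links the cap-binding complex to primary microRNAs, rose by 1.01 (adjusted p = 0.0145), from 40.2 to 72.5 CPM up to 103 to 140.3 CPM, and kept 0.42 after the GC correction. *KHSRP*, a protein that binds precursor loops, rose by 0.70 (adjusted p = 0.0138) but was at -0.16 after that correction, and *NCBP1*, a cap-binding protein, had a log2 fold change of -0.30 (adjusted p = 0.0595). No gene of the export list (*RAN* and *XPO1*, at -0.10 and -0.39) or of the 3 Dicer partners and editing enzymes passed the test. Of those 3, *PRKRA*, the other double-stranded RNA-binding partner of Dicer, was at -0.22 (adjusted p = 0.253), *ADARB1* at -0.17 and *ADAR* at 0.03. After the GC correction *ADARB1* was at -0.41 (adjusted p = 0.0109), *PRKRA* at -0.01 and *ADAR* at -0.08.

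Of 16 genes for Argonaute loading and cofactors, 3 fell and 0 rose. *AJUBA*, a LIM-domain protein that binds Argonautes, fell from 27.2 to 28.1 CPM in sh-control to 15.1 to 16.4 CPM (log2 fold change -0.82, adjusted p = 0.00613). *IPO8*, an importin that associates with Argonaute, fell by 0.54 on the log2 scale (adjusted p = 0.0176), but was at -0.29 (adjusted p = 0.0621) after the GC correction. In the other direction, *LIMD1*, a relative of *AJUBA*, was at 0.28 (adjusted p = 0.142) and the helicase gene *MOV10* at 0.58 (adjusted p = 0.148).

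In the list of 20 GW182 paralogues and deadenylation genes, 1 rose and 3 fell. Subunits of the CCR4-NOT deadenylase complex moved in both directions. *CNOT10* fell by 0.51 (adjusted p = 0.0118) and *CNOT2* by 0.45 (adjusted p = 0.0195), while *CNOT3* rose by 0.80 (adjusted p = 0.0161), from 9.41 to 9.99 CPM up to 13.5 to 18.8 CPM. After the GC correction *CNOT3* was at 0.15 (adjusted p = 0.612), *CNOT2* at -0.26 (adjusted p = 0.0822) and *CNOT10* at -0.36 (adjusted p = 0.00753). *BTG2*, an activator of deadenylation, was at 0.30 (adjusted p = 0.173).

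Of 11 decapping and decay genes, 2 fell and 0 rose. These were *DDX6*, a helicase that joins the deadenylase to decapping (-0.44, adjusted p = 0.0292, or -0.24 and 0.0686 after the GC correction), and *XRN1*, the cytoplasmic exonuclease that degrades decapped RNA (-0.61, adjusted p = 0.0306, or -0.42 and 0.00251). *EDC3* and *EDC4*, enhancers of decapping, were at 0.42 (adjusted p = 0.0851) and 0.52 (adjusted p = 0.194). After the GC correction *EDC3* was at 0.17 (adjusted p = 0.360), and *EDC4* turned to -0.29 (adjusted p = 0.0360).

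Of the 9 tested genes for precursor tailing and microRNA turnover, 1 rose and 1 fell. *TUT7*, a terminal uridylyltransferase, fell by 0.53 (adjusted p = 0.0145) but was at -0.28 (adjusted p = 0.0510) after the GC correction. *ZSWIM8*, the ubiquitin ligase adaptor of target-directed microRNA decay, rose by 0.87 (adjusted p = 0.0446) but was at 0.07 after it. *PARN* was at -0.31 (adjusted p = 0.0757) and *TUT1* at 0.35 (adjusted p = 0.358). *LIN28A*, a blocker of let-7 maturation, had 0 reads in all libraries.

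Among 10 tested microRNA host transcripts, 1 rose and 1 fell. *MIRLET7BHG*, the host of let-7 family hairpins, rose by 1.55 (adjusted p = 0.0203) on only 155 reads in all, from 0.260 to 0.746 CPM up to 1.37 to 1.95 CPM, and was the pathway gene called by DESeq2. It was at 0.37 after the GC correction. *MIR9-1HG* fell by 0.72 (adjusted p = 0.0259), and *MIR22HG* (-0.38) and *MIR210HG* (0.85) did not pass.

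The PIWI branch, the germline relative of the Argonaute pathway, was mostly near the limit of detection, with 7 of 16 genes under 10 reads, *PIWIL1* and *PIWIL3* among them. Of the 9 tested, 3 fell and 0 rose. *TDRD7*, a Tudor-domain protein, fell from 66.9 to 72.8 CPM in sh-control to 34.7 to 43.3 CPM (-0.84, adjusted p = 0.00487), and *TDRKH* fell by 0.71 (adjusted p = 0.0169). The third was *TDRD6* (-0.79, adjusted p = 0.0452), named because so few passed. *PLD6* was at 0.41 (adjusted p = 0.143) and *TDRD5* at 0.78 on 34 reads (adjusted p = 0.463).

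**Figure D5:**
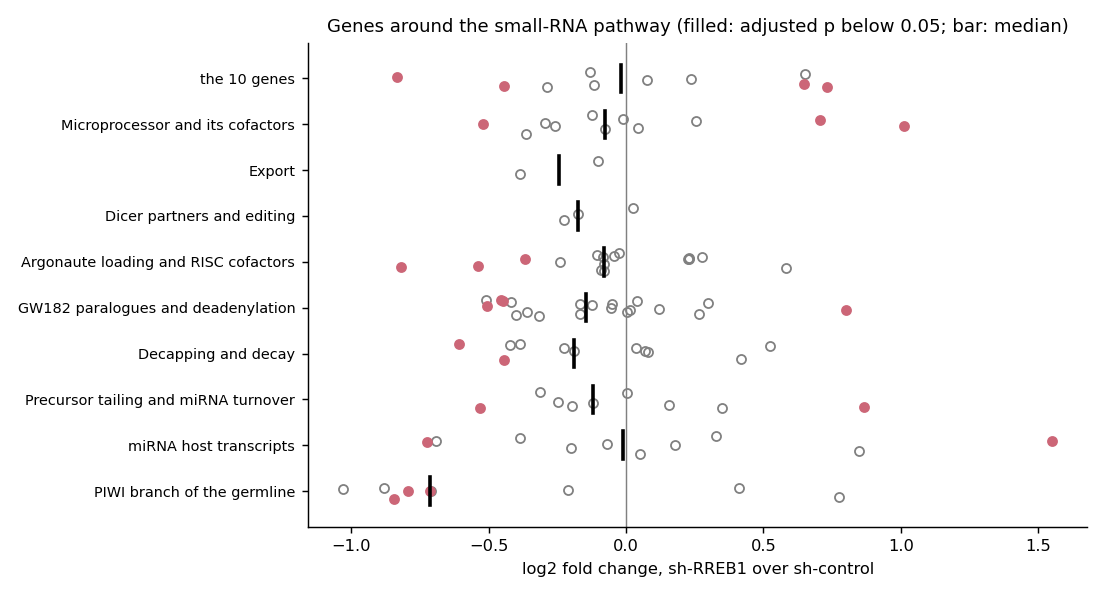
Log2 fold change (horizontal axis), sh-RREB1-labelled libraries over sh-control, of the 10 genes (top) and of the tested genes of 9 pathway lists; filled points have an adjusted p below 0.05 and black bars are medians. Of the 91 genes in the lists, 5 filled points lie to the right of 0 and 14 to the left.

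Some of the 10 genes share exonic bases with other genes. *XPO5* overlaps *POLR1C* on the opposite strand over 348 bases, *TARBP2* overlaps a long noncoding RNA (ENSG00000270175) over 541 bases and *DICER1* overlaps *DICER1-AS1* over 80 bases. *DGCR8* overlaps a long noncoding RNA (ENSG00000243762) over 526 bases and *TRMT2A* over 3 bases. Other opposite-strand long noncoding RNAs share 396 bases with *AGO1* and 86 bases with *AGO3*. On the same strand, *AGO2* shares 47 bases with ENSG00000279766, which held 3 to 14 reads per library and which strand does not separate from it. The counts used here were made by strand. Reads on the strand opposite to the gene were at most 1.62% of a gene's reads for the other 9 and 2.23% to 5.66% for *TARBP2*.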

How the data were processed

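RNA was extracted with TRIzol and libraries were made with a stranded total RNA kit, per the labels. The authors aligned reads with STAR (version 2.4.2a, hg38, Gencode 25) and deposited per-library counts of reads per gene and a merged table of the same counts, in which all 24635 identifiers found were equal to the sense-strand counts. The sense-strand column was used, without its 4 summary rows, which held 36.1% to 74.0% of all reads tallied per library. Symbols, coordinates, lengths and GC content came from Gencode 44. The table was fitted whole with edgeR 4.0.16 in R 4.3.3 (TMM, quasi-likelihood test, condition only, 10 reads or more summed, Benjamini-Hochberg adjustment over 23617 genes). DESeq2 1.42.0, other scalings and filters, removal of the trend on GC content and length (natural splines with 5 degrees of freedom per library), a replicate block and leaving out each library were alternatives. Shares and ratios were compared by exact permutation tests. Intervals cover the spread between libraries. The fit was tested on simulated data with changes larger than those of the 10 genes, so that test does not cover changes of their size.

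Named beside the 10 genes were *RREB1*, the 3 genes most like the member with the largest change as counted, *AGO4* (mean of 5 CPM or more) and, per pathway list, genes called or else the 2 with the lowest adjusted p in each direction. The members and lists were chosen with earlier results of these data known. Replicate numbers were compared by correlating deviations from the group means, which gave 0.50, 0.43 and -0.28 for numbers 1, 2 and 3. Deviations within a group are not independent, so this cannot settle whether libraries are paired. They were not treated as pairs in the main fit.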

Additional observations from a re-analysis of the deposited data

Results flagged for a closer look

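Reads on the strand opposite to *TARBP2*, which the comparisons did not use, were 4.71% of the gene's reads on average in sh-RREB1-labelled libraries and 2.67% in sh-control, above the level in the control libraries. They came from 28, 36 and 19 reads against 7, 16 and 17 reads, over a gene that shares 541 exonic bases with a noncoding RNA on that strand. The difference was not tested.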

How the results depend on the processing

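None of the 10 genes was called at an adjusted p below 0.01 with an absolute log2 fold change above 1 under any setting run. At an adjusted p below 0.05 with no minimum fold change, 4 passed in the main fit. With the trend on GC content and length removed, 2 were higher and 3 lower at that level, and which genes passed differed in other settings too. The number called among all genes moved far more, from 798 to 1656 with DESeq2, 1829 with a minimum of 1 read, 1706 with the replicate block and 4573 at an adjusted p below 0.05. With 1 library left out it ranged from 8 to 1120. The lowest count was without sh-RREB1 replicate 3. It was 9 when sh-control replicate 2 was left out, 25 when sh-RREB1 replicate 1 was, 136 when sh-RREB1 replicate 2 was and 380 when sh-control replicate 3 was. With the trend on GC content and length removed, it was 714 over all 6 libraries and 457 to 715 with 1 left out; the cause was not tested. Pathway genes called numbered 0, but 1 with DESeq2 (*MIRLET7BHG*), 2 with a minimum of 1 read and 2 with the replicate block (*MIRLET7BHG* and *SRRT* in both), 1 with library totals (*SRRT*), and 19 at an adjusted p below 0.05. It was 0 with any 1 library left out, and 0 to 2 with the trend removed as well (*AJUBA* and *MIR9-1HG*).

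The sign of the log2 fold change turned for 3 genes whose intervals as counted include 0. *AGO3* went from -0.13 to 0.063 after the GC and length trend was removed, to 0.060 with the replicate block as well, and to between -0.25 and 0.0028 with 1 library left out, or 0.0070 to 0.15 with 1 left out and the trend removed. *DROSHA* went from 0.08 to between -0.042 and 0.19 with 1 library left out, or 0.11 to 0.33 with the trend removed as well. *DGCR8* went from 0.24 to -0.29 without the trend and to -0.30 with the replicate block as well, both with intervals that exclude 0. With 1 library left out it stayed at 0.051 to 0.33 as counted and at -0.36 to -0.23 with the trend removed. With library totals in place of TMM, *TNRC6A* had an adjusted p of 0.0506. Whether replicate numbers pair the libraries was not settled. Numbers 1 and 2 correlated at 0.50 and 0.43, but sh-control replicate 3 correlated best with sh-RREB1 replicate 2 (0.56). With the replicate block *DICER1* (adjusted p = 0.0454) and *TARBP2* (adjusted p = 0.0264) were also below 0.05. *RREB1* was below it too (-0.37, adjusted p = 0.0110) when the trend was removed as well. The combined share of *AGO1* and *AGO2* was higher by 16.0 to 19.9 percentage points over all 10 alternatives. With 3 libraries a group, and *TARBP2* on 244 to 919 reads, small changes could have been missed. The smallest change that these libraries could detect was not measured.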
